A study of Mus musculus with 46 samples.

Results

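Mouse embryonic fibroblasts (MEFs) that received retroviral Oct4 (gene symbol Pou5f1) together with native Nanog (NanogWT) were followed by RNA-seq, and the step from day 3 (D3) to day 7 (D7) of that path is described here. The step holds 6 libraries, 2 each at D3, D5 and D7, which were chosen by the factors and the day in the sample labels, out of 31 time-course libraries and 46 samples in the series. The same days of the fusion path, with Oct4 and NanogN70 (NanogBiD), gave 6 further libraries for comparison. NanogN70 carries at its N-terminus a piece of SS18 that binds BRG1, the ATPase of the BAF chromatin remodelling complex.

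Per the study's methods, the fibroblasts of both paths came from mid-gestation embryos of OG2 males (CBA/CaJ x C57BL/6J), which carry an Oct4-GFP reporter, crossed with wild-type 129 females (129S2/SvPasCrl). Both paths received their factors from retroviruses packaged in Plat-E cells, with D0 set after the second infection, and were kept in iCD3 induction medium. Fibroblasts without factors (MEF, 2 libraries) and OG2 embryonic stem cells (mES, 1 library) served as reference levels. The libraries are of whole cultures, in which fewer cells of a type and less RNA per cell cannot be told apart. The labels number the replicates but do not say that they were separate infections, so p-values measure the spread between these libraries only.

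Nanog and Oct4 are transcription factors of the embryonic stem cell network, in which they act with Sox2, Esrrb, Tfcp2l1, Sall4 and others to keep cells pluripotent. Fibroblasts on the way to pluripotency are known to lose their matrix and mesenchymal genes and to gain epithelial and pluripotency genes. MHC class I genes, which display peptides of the cell's own proteins on its surface, are known to respond to interferons and to NF-kB, and are low in pluripotent cells.

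The 6 libraries were close to each other in size. Their summed FPKM (fragments scaled by gene length and library size) lay between 389829 and 412074, with 13075 to 13497 genes at 1 FPKM or more. Relative depth, read from the steps between low values, was 0.937 to 1.14 with D3 replicate 1 set to 1, and 1.07 to 1.18 in the fusion libraries of the same days. Replicates correlated across genes at r = 0.983 to 0.986 on the log scale, which is a description, since genes are not independent.

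The transduced factors were high in every library. Nanog (chr6:122707489-122714633, GRCm38.p6) stood at 1568 and 1626 FPKM at D3, then 1477 and 1652 (D5) and later 1215 and 1528 (D7), against 0.232 in MEF (mean of 2) and 365 in mES. Pou5f1 stood at 6952 and 7714 (D3), 4963 and 5546 (D5) and 6550 and 4321 (D7). Neither passed the test between D3 and D7, with log2 differences of -0.23 ± 0.20 (SE, adjusted p = 0.880 in limma) and -0.46 ± 0.36 (adjusted p = 0.823). FPKM of a gene does not separate vector transcripts from those of the cell's own locus.

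Markers of cell types were read to see what else the cultures held. Of 12 fibroblast markers 0 were called, and their summed level was 733 and 868 FPKM at D3, then 663 and 734 (D5) and later 714 and 686 (D7), below the 6829 and 5884 of the MEF libraries. Myod1, Myog and Myf5 of skeletal muscle, Tie1 of endothelium, Adipoq, Plin1, Cfd and Cidec of adipocytes, and the globins were at 0 in all 6 libraries. Other markers of these cell types were not at 0. All 10 endothelial markers summed to 6.95 to 9.89 FPKM, against 5.93 and 4.11 in MEF. The 8 adipocyte markers summed to 4.47 to 6.97 (MEF 9.83 and 8.92) and the 10 of skeletal muscle to 1.27 to 2.59 (MEF 17.2 and 81.7). The 12 macrophage markers summed to 7.70 to 29.0 FPKM (MEF 6.37 and 15.8), and 2 of them, Csf1r and Tyrobp, stayed under 0.5 FPKM in all 6. Of 10 embryonic stem cell markers 7 stayed under 0.5 FPKM in all 6 libraries, and their sum was 14.3 and 14.8 FPKM at D7 against 3732 in mES.

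From D3 to D7, 248 genes rose and 30 fell with native Nanog. Values were compared as log2(FPKM + 1) with limma over 16842 genes, and a call needed both a Benjamini-Hochberg adjusted p below 0.05 and a difference of 1 or more in size, that is 2-fold on that scale. The called genes were 1.47% of all tested in the upward direction and 0.178% downward, and the median of all genes tested was 0.02. All 16 groups of the time course shared one estimate of the spread, and these calls rest on that: with the compared groups fitted alone, 0 genes passed in either direction, while 2123 had an unadjusted p under 0.05. Of the genes that rose, 209 were protein-coding and 18 were lncRNAs.

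**Figure D1:**
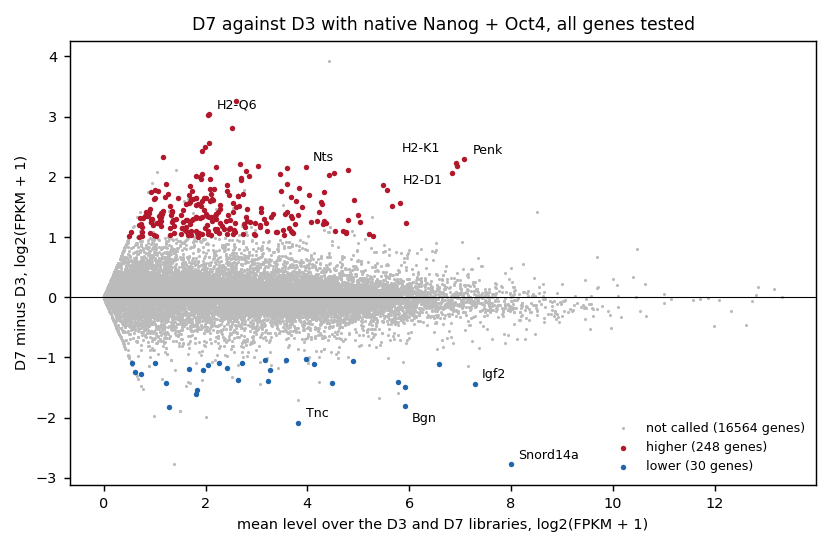
Difference between D7 and D3 with native Nanog and Oct4 (vertical axis, log2(FPKM + 1)) against the mean level over the D3 and D7 libraries (horizontal axis, log2(FPKM + 1)), one point per gene tested. The 248 genes called higher and the 30 called lower are coloured, and most of the upward calls lie at low to middle levels, with H2-K1, H2-D1 and Penk at the higher end.

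Most genes that rose were low in both reference cell types. Of the 248, 158 (63.7%) were under 1 FPKM both in the MEF mean and in mES, against 16.2% of all genes tested. Genes entered the test by their time-course levels alone, and 1 FPKM in the 2 D7 libraries was enough. That share is therefore partly set by the filter and is a description. Among genes tested, 1086 exceeded their MEF level 4-fold or more in mES (on FPKM + 1), and 32 of them (2.95%) rose, 0 fell, and their median difference was 0.04. A further 1099 exceeded their mES level by as much in MEF, and 9 rose (0.819%), 13 fell (1.18%), with a median of -0.10. The 13 are 43.3% of the 30 genes that fell. Levels were often low, and 94 of the 248 had a D7 mean under 5 FPKM.

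MHC class I genes led the rise. Of 12 genes for MHC class I and antigen processing, all tested, 5 rose, 0 fell and 7 were not called, and their median difference was 0.86 against 0.02 over all genes. H2-K1 (chr17:33996012-34000619, GRCm38.p6), a classical class I heavy chain that presents peptides to cytotoxic T cells, stood at 54.5 and 54.7 FPKM (D3), 152 and 169 (D5) and 266 and 256 (D7). The days did not overlap, but D3 and D7 did not overlap in any of the 248 genes that rose. The difference of H2-K1 between D7 and D3 was 2.23 ± 0.17 (SE, adjusted p = 1.56e-07 in limma), or 4.78-fold in mean FPKM. Its level in MEF was 6.95 and in mES 26.9 FPKM, so that every native library lay above both references. H2-D1, another classical heavy chain, followed the same course, from 50.5 and 63.5 FPKM at D3 through 133 and 173 at D5 to 277 and 243 at D7 (2.18 ± 0.21, adjusted p = 3.12e-06).

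The remaining calls of this list were parts of the peptide supply and its regulator. Psmb9, a catalytic subunit of the immunoproteasome, which cuts proteins into peptides for class I molecules, went from 0.564 and 1.04 FPKM at D3 to 3.28 and 3.92 at D7 (1.36 ± 0.20, adjusted p = 0.000213). Psmb8, a second such subunit, went from 9.66 and 12.0 to 28.8 and 25.6 FPKM (1.26 ± 0.33, adjusted p = 0.0402), a call that was lost when any 1 of the 4 libraries was left out. Nlrc5, the transactivator of class I genes, stood at 1.85 and 1.90 FPKM at D3 and 4.59 and 5.38 at D7 (1.05, adjusted p = 0.00237). B2m, the light chain shared by all class I molecules, stood at 1087 and 1072 FPKM at D3, then 1952 and 1798 (D5) and later 1647 and 2143 (D7), and its difference of 0.80 had an adjusted p of 0.0304 in limma but not the 2-fold size. Tap2, a subunit of the peptide transporter, was similar (0.91, adjusted p = 0.0294), whereas Tap1 (0.67), Tapbp (0.43), Erap1 (0.53), H2-T23 (0.59) and Psmb10 (-0.16) did not pass. The count of 5 fell to 3 with a pseudocount of 0.1, with a filter of 5 FPKM, or without D7 replicate 2.

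The promoter of H2-K1 is shown because it carries the best known regulatory letters of class I genes beside the gene with the largest difference of the list. The letters GGGNNTTCC, which cover the NF-kB site of the class I enhancer, were searched on both strands in windows from 250 bases before to 50 after each RefSeq start site (GRCm38.p6). The 250 bases before the H2-K1 start site, chr17:34000348-34000597 on the minus strand, are printed 5′ to 3′ with the match in capitals. No exon of the GENCODE annotation overlaps them, although the RefSeq span of the gene, which includes predicted transcripts, reaches past them.
H2-K1: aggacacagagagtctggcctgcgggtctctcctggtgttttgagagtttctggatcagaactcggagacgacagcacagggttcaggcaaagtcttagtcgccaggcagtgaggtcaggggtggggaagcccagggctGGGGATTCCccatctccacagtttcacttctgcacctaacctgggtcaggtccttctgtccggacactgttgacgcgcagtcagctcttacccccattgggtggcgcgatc

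The match begins 111 bases before the RefSeq start site of H2-K1 and 171 before that of H2-D1. The 30 bases around it, from H2-K1 (chr17:34000439-34000468, minus strand) and H2-D1 (chr17:35262913-35262942, plus strand), were identical at 29 of 30 positions. In H2-D1, unlike H2-K1, a GENCODE exon of the gene itself overlaps the bases searched before the RefSeq start site. Upstream of that exon 0 of those bases were left, so the H2-D1 match cannot be taken as lying before every annotated start.
H2-K1, 30 bases: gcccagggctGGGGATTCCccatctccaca
H2-D1, 30 bases: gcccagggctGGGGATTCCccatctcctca

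Of the 12 list members 10 had a window, and 2 of the 10 (20%) held the letters, both of them called, against 1536 of all 27026 windows (5.68%). A second set of letters, GAAANNGAA, part of the interferon-stimulated response element, added after the data were seen, was in 3 windows of the list (H2-T23, B2m and Erap1), of which 0 rose, and in 8.58% of all windows. A match is a description of letters and not evidence that a factor was bound there, and windows of paralogs share sequence by descent.

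Other genes of the H2 complex moved in the same direction. The 25 tested genes whose symbol starts with H2-, a set chosen after their values were seen, held 10 that rose and 0 that fell, with a median of 0.87. H2-Q6 and H2-Q8 had the largest differences of the named genes, with H2-Q6 (chr17:35424850-35430055), a nonclassical class I gene, at 0.338 and 0.597 FPKM (D3), 4.16 and 3.39 (D5) and 13.6 and 8.94 (D7) (3.04 ± 0.37, adjusted p = 2.88e-05). H2-Q7, which encodes the nonclassical Qa-2 antigen, stood at 0.580 and 0.721 FPKM at D3 and 8.61 and 7.12 at D7 (2.42 ± 0.22, adjusted p = 1.11e-06). H2-Q6 and H2-Q8, H2-Q7 and H2-Q9, H2-D1 and H2-L, and H2-T22 and H2-T9 are near-identical copies whose reads the counting may split, so their separate values are uncertain. H2-Q4 rose by 1.77 and H2-Q1 by 1.95, while H2-T22 (0.61) and H2-M3 (0.86) were not called. The class II genes H2-Ab1 and H2-Eb1, which professional antigen-presenting cells express, stayed under 0.5 FPKM in all D3 and D7 libraries.

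Complement genes rose beside them. Complement is a cascade of plasma proteins that marks and lyses cells, and fibroblasts are known to make several of its early components and regulators. Of 11 tested genes 5 rose, 0 fell and 6 were not called, with a median of 0.85. The calls included proteases and an inhibitor. C1s1, a protease of the classical pathway, went from 6.57 and 3.91 to 22.8 and 17 FPKM between D3 and D7 (1.76, adjusted p = 0.000192). C2, its substrate, went from 6.35 and 7.38 to 21.3 and 24.5 (1.61, adjusted p = 0.000303). Cfb, the alternative-pathway counterpart that lies next to C2 on chromosome 17, went from 1.34 and 1.39 to 6.11 and 4.82 (1.44, adjusted p = 3.62e-05). Serping1, the C1 inhibitor, went from 14.5 and 15.2 to 29.6 and 37.2 (1.11, adjusted p = 0.00250). C3, the central component, stayed at 0.0952 to 0.279 FPKM, and C1ra had a difference of 0.69 that did not pass.

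Listed interferon-stimulated genes held 2 calls. Of 28 tested 2 rose and 0 fell, where 1.47% of all genes tested rose. A difference above 0 was seen in 26 of them, and the median was 0.34. Oas2 (chr5:120730333-120749886), an antiviral enzyme that makes oligoadenylate when it meets double-stranded RNA, stood at 1.92 and 1.73 FPKM (D3), 4.34 and 5.05 (D5) and 8.68 and 9.82 (D7) (1.86 ± 0.22, adjusted p = 2.89e-05). Oas3, its neighbour on chromosome 5, went from 0.886 and 1.05 to 3.72 and 3.85 (1.28 ± 0.16, adjusted p = 3.05e-05). Ifit1 (0.30) and Isg15 (0.13), widely used readouts of interferon signalling, were not called, and Isg15 replicates differed from 79.5 to 120 FPKM at D3. Genes outside the list that interferon is also known to induce, among them Zbp1 (1.58) and Gbp6 (1.46), were called higher, and these were picked after their values were seen.

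Macrophages, which make complement and class I products in quantity, were looked for beside these genes. Of 12 macrophage markers 0 were called, and their sum was 22.1 and 7.70 FPKM at D3, then 29.0 and 17.8 (D5) and later 23.6 and 11.8 (D7), so that the days overlapped. Among these markers 1 had a positive difference with an adjusted p under 0.05 in limma but not the 2-fold size. The median of the 12 was 0.22, against 0.02 over all genes. The part of macrophages in the MHC class I and complement results was not tested. Inflammatory chemokines, cytokines and adhesion genes held 1 call among 20 tested, Sele, which fell. Ccl8, a monocyte chemokine, stood at 292 and 170 FPKM at D3 and 560 and 639 at D7, a difference of 1.42 with an adjusted p of 0.0645.

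Precursors of secreted peptides moved in both directions. Penk (chr4:4133536-4138815), the precursor of enkephalin opioid peptides, stood at 61.6 and 57.9 FPKM (D3), 107 and 134 (D5) and 342 and 257 (D7) (2.29 ± 0.30, adjusted p = 7.38e-05). Nts, the precursor of neurotensin, stood at 4.58 and 8.77 at D3, then 21.9 and 44.9 (D5) and later 24 and 42.8 (D7) (2.17 ± 0.31, adjusted p = 0.000192), so that D5 and D7 overlapped and D3 lay below both. Tac1, the precursor of substance P, went the other way, from 111 and 90.9 FPKM at D3 to 30.3 and 41.3 at D7 (-1.48, adjusted p between 0.0163 and 0.241 over the alternatives), and its call was lost without any 1 of the 4 libraries. Pcsk1n, an inhibitor of the prohormone convertase PCSK1, went from 1.09 and 0.445 FPKM at D3 to 8.58 and 9.92 at D7 (2.56 ± 0.30, adjusted p = 2.70e-05).

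Slc18a2, the vesicular monoamine transporter, went from 3.40 and 2.38 FPKM at D3 to 14.9 and 18.2 at D7 (2.18 ± 0.25, adjusted p = 1.97e-05). Clca3a2, a member of the calcium-activated chloride channel regulator family, went from 1.54 and 0.846 to 12.9 and 15.7 (2.81 ± 0.24, adjusted p = 5.86e-07). Of 17 neural and neural crest genes 1 rose and 0 fell, with a median of 0.05. That 1 gene was Sox1, a neural progenitor factor, at 10.9 and 8.93 FPKM at D3 and 41.4 and 30.6 at D7 (1.75, adjusted p = 0.00584), a call lost without D3 replicate 2 or D7 replicate 1. Sox3, a close relative of Sox1, stood at 24.9 and 24.3 FPKM at D3 and 8.68 and 5.32 at D7, a difference of -1.71 that did not pass (adjusted p = 0.0886). Of 9 neuron and glia markers 0 were called, and their sum, mostly Gap43, lay at 436 to 539 FPKM in all 6 libraries. Their part in the result was not tested.

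**Figure D2:**
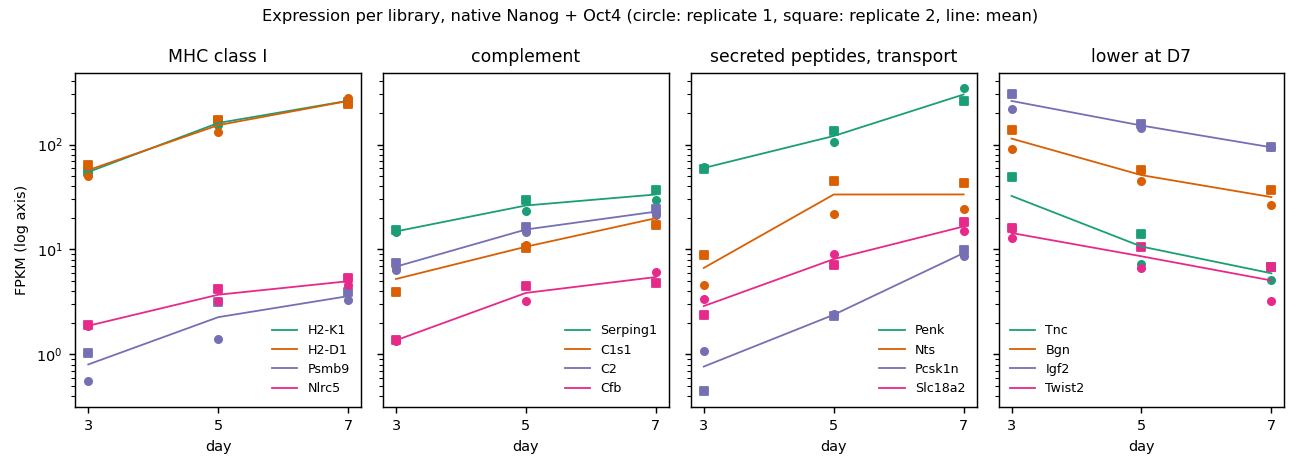
FPKM of 16 genes (vertical axis, log scale) by day (horizontal axis) in the 6 native Nanog libraries, in panels for MHC class I, complement, secreted peptides and their transport, and genes lower at D7, with circles for replicate 1, squares for replicate 2 and lines for the mean. The MHC class I and complement genes climb through D5, and Tnc replicates lie far apart at D3 (16.2 and 48.5 FPKM).

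Single pluripotency genes rose, where 1.47% of all genes tested did. Of 17 naive and core pluripotency factors, the transduced pair not counted, 3 rose and 0 fell, with a median of 0.09. Tfcp2l1, a factor of the naive state, stood at 5.38 and 3.96 FPKM (D3), 9.21 and 8.90 (D5) and 12.9 and 12.8 (D7), against 0.0597 in MEF and 107 in mES (1.30 ± 0.19, adjusted p = 0.000282). Sall4, a zinc finger partner of Oct4 and Nanog, went from 0.0503 and 0.136 to 1.43 and 1.63 (1.21 ± 0.31, adjusted p = 0.0357), far under its 57.4 in mES, and its call was lost without any 1 of the 4 libraries.

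The others stayed near 0. Sox2 was at 0.106 to 0.498 FPKM and Esrrb at 0.0259 to 0.253 in the 6 libraries, against 248 and 163 in mES, and neither was called. In all 6 libraries 7 of the 17 factors stayed under 0.5 FPKM. Of 23 pluripotency effectors and surface genes 2 rose, 0 fell, and 15 stayed under 0.5 FPKM in all 6, with a median of 0.05. The 2 were L1td1, an RNA-binding protein of stem cells (0.406 and 0.288 at D3, 1.87 and 3.44 at D7, difference 1.41), and Fbxo15, an early target of Oct4 (1.98 and 1.17 at D3, 5.06 and 5.91 at D7, difference 1.35). Their adjusted p-values were 0.0298 and 0.0315 in limma, and the call of Fbxo15 was lost without any 1 of the 4 libraries and that of L1td1 without D3 replicate 1, D3 replicate 2 or D7 replicate 2.

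Matrix genes and a growth factor were among the genes that fell. Tnc (chr4:63959785-64047015), the matrix glycoprotein tenascin C, stood at 16.2 and 48.5 FPKM at D3, then 7.30 and 14 (D5) and later 5.09 and 6.78 (D7) (-2.08 ± 0.41, adjusted p = 0.00526). Bgn, the small proteoglycan biglycan, stood at 89.8 and 138 FPKM (D3), 45.1 and 57 (D5) and 26.3 and 36.8 (D7) (-1.80 ± 0.35, adjusted p = 0.00369). The D3 and D7 libraries of both genes did not overlap, which held for all 30 genes that fell. Both calls were lost without D3 replicate 2 or D7 replicate 1. Igf2 (chr7:142650768-142666816), an imprinted growth factor of the embryo, stood at 219 and 301 FPKM at D3, then 145 and 158 at D5 and 94.3 and 93.8 at D7 (-1.44 ± 0.18, adjusted p = 3.89e-05). MEF levels of these 3 genes were 332, 1352 and 1404 FPKM, so D3 already lay well below the starting cells.

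Further falls concerned single members of several lists. Twist2, a mesenchymal transcription factor, went from 12.8 and 15.9 FPKM at D3 to 3.26 and 6.87 at D7 (-1.40, adjusted p = 0.0197), while its relative Twist1 (0.21) and Prrx1 (-0.57) were not called. Ltbp2, a matrix protein related to the TGF-beta binding proteins, went from 3.45 and 4.31 to 1.35 and 0.911 (-1.20, adjusted p = 0.00108). Serpinb7, a serine protease inhibitor, went from 5.38 and 4.86 to 1.17 and 0.836 (-1.62, adjusted p = 7.84e-05). Filip1l, which encodes a filamin A interacting protein, went from 12.1 and 15.5 to 5.17 and 5.59 (-1.20, adjusted p = 0.00102). Sele, E-selectin, fell by 1.40 on the log2 scale, and its call, like that of Twist2, was lost without D3 replicate 1 among others. The largest fall was that of Snord14a, a small nucleolar RNA inside a host gene, at 686 and 653 FPKM at D3 and 108 and 86.7 at D7 (-2.78, adjusted p = 0.0206). Its FPKM is uncertain, since it is short and shares its reads with the host, and its call was lost without any 1 of the 4 libraries.

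Read as lists, fibroblast genes gave single calls, where 1.47% of all genes tested rose and 0.178% fell. Of 20 collagens 0 were called (median -0.08), Col1a1 being at 206 and 281 FPKM at D3 and 196 and 185 at D7 against 3522 in MEF. Of 25 matrix proteoglycans and glycoproteins 1 rose (Dpt, dermatopontin, by 1.15, lost without D7 replicate 2 among others) and 2 fell, with a median of -0.14. Of 17 fibroblast transcription factors 0 rose and 1 fell (median -0.01), of 16 genes of the TGF-beta pathway 0 rose and 1 fell (median -0.08), and of 20 matrix proteases and inhibitors 0 rose and 1 fell (median 0.10). Smooth muscle and contractile genes held 1 rise among 17, Myocd, the coactivator of the smooth muscle programme, at 1.20 and 1.30 FPKM at D3 and 4.36 and 3.34 at D7 (1.10, lost without D7 replicate 1). Of the 10 IGF pathway genes only Igf2 was called, and the list median was -0.26.

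Single metabolic and stress genes were called, where 1.47% of all genes tested rose and 0.178% fell. Slc7a11, the cystine transporter that feeds glutathione synthesis, stood at 32.1 and 25.9 FPKM (D3), 82.4 and 54.3 (D5) and 84.6 and 83.2 (D7) (1.51 ± 0.27, adjusted p = 0.00167). Its partner Slc3a2 had a difference of 0.67 that did not pass. In the list of ATF4 targets it was the 1 rise among 18, beside 1 fall, that of Aldh1l2, a mitochondrial folate enzyme (-1.43, lost without D3 replicate 1 or D7 replicate 2). The glutathione transferases Gsta4 (1.41) and Gstm1 (1.23) were the 2 rises among 17 oxidative stress and metallothionein genes, and both were lost without any 1 of the 4 libraries. Lama1, a laminin chain in the list of primitive endoderm genes, rose from 0.928 and 0.963 to 3.29 and 3.30 FPKM (1.14, adjusted p = 0.000647), 1 of 6 tested.

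No called gene was found in 16 of the 32 lists. DNA replication (25 genes, median -0.01), mitosis (25, 0.07), senescence and p53 targets (17, -0.26), glycolysis and hypoxia (21, -0.02), cholesterol synthesis (22, 0.18), the unfolded protein response (16, 0.04), the BAF subunits (20, -0.01), lysosome and autophagy (18, -0.05) and Hox genes (27, -0.12) each had 0 calls. The Wnt (26, 0.15) and BMP (18, 0.07) pathways, AP-1 and immediate early genes (16, -0.07), epithelial genes (18, 0.05), trophoblast genes (10, 0.02), fatty acid genes (16, -0.01) and the collagens also had 0. Cdh1, the epithelial cadherin, was under 0.5 FPKM throughout. Over all 32 lists 587 different genes were tested, of which 24 rose and 8 fell. Both are larger shares than over all genes tested (1.47% and 0.178%), and the lists were chosen with earlier results known.

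**Figure D3:**
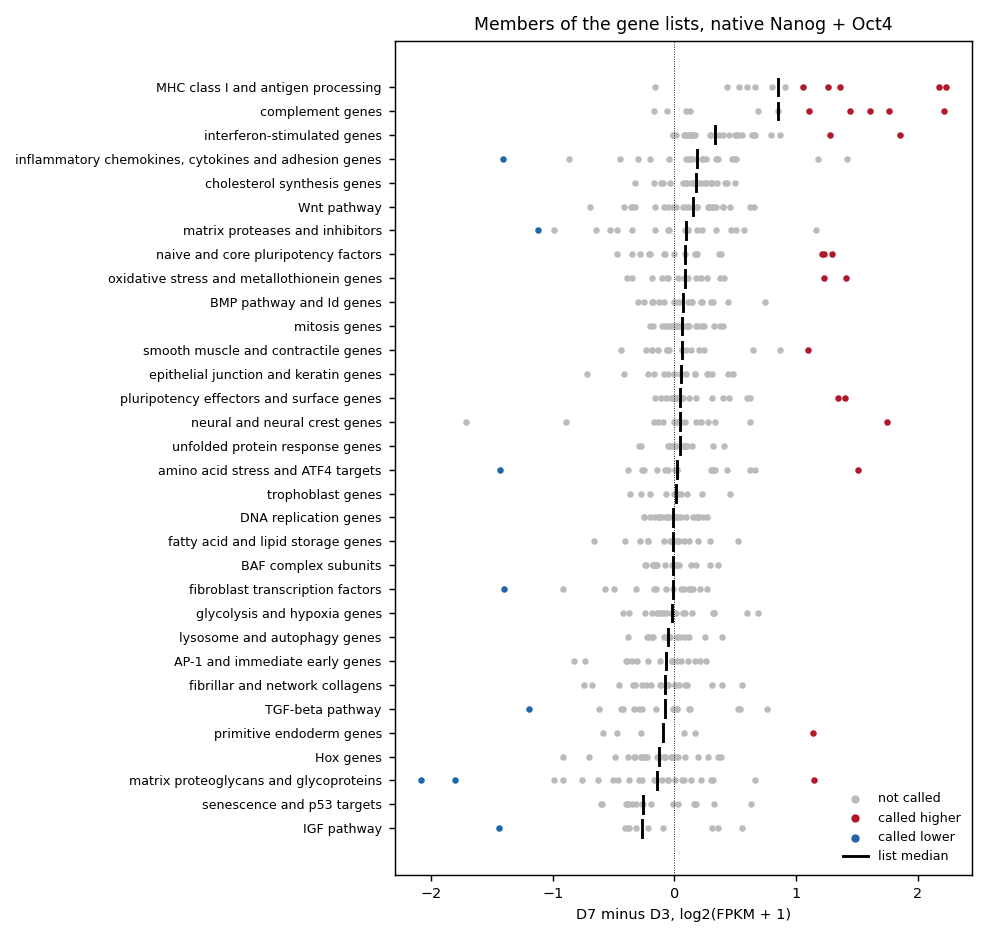
Difference between D7 and D3 with native Nanog (horizontal axis, log2(FPKM + 1)) for each tested member of the 32 gene lists (rows), with called members coloured and the list median as a bar. The medians of MHC class I (0.86) and complement (0.85) stand apart from those of the other lists, which lie between -0.26 and 0.34.

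At D5 most called genes had means between those of D3 and D7. Between D5 and D3, 57 genes (0.338% of those tested) were called higher and 6 (0.0356%) lower. Between D7 and D5, 11 (0.0653%) were higher and 0 (0%) lower, with 684 genes at an unadjusted p under 0.05. Both comparisons share libraries with the comparison of D7 and D3, so their overlap with it is a description. Of the 248 genes that rose over the whole step, 243 had a D5 mean between those of D3 and D7, and the median share of the difference present at D5 was 59.2%. For the 30 genes that fell it was 28 genes and 60.0%. Choosing genes by their D3 and D7 values itself favours D5 means between them. These shares therefore cannot decide whether the course was gradual.

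Individual genes departed from that median. The difference in Nts was in place at D5 (98.6% of it), as was that in Dpt (103%), whereas Pcsk1n had 37.7% and Penk 43.2% of theirs and H2-K1 68.6%. The 11 genes called between D5 and D7 included Pcsk1n, H2-Q7, H2-Q9, Cacng3, Dpp6, Egfl6, Afap1l1, Htr3a, Iqsec3 and Mir7065.

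More genes were called in the fusion path over the same days. With NanogBiD 768 genes (4.56% of those tested) rose and 210 (1.25%) fell, with a median of 0.06 over all genes. Both transduced factors were among the falls. Nanog went from 1480 and 1590 FPKM at D3 to 712 and 723 at D7 (-1.10, adjusted p = 0.000891 in limma). Pou5f1 went from 6969 and 4571 to 2683 and 1804 (-1.36, adjusted p = 0.0137). Their interactions of 0.87 and 0.90 did not pass. The part of factor levels in the difference between the paths was not tested. The difference between the paths was tested directly as an interaction, for which the paths share no library. It called 161 genes (0.956%) with a higher difference in the native path and 433 (2.57%) with a lower one. The share of higher calls, 27.1%, was 38.5% after quantile normalization (229 and 366), 20.2% with a pseudocount of 0.1 (98 and 387), 19.9% on TPM (129 and 518) and 14.8% with the compared groups alone (42 and 242).

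Of the 248 genes that rose with native Nanog, 83 were also called higher and 2 lower with the fusion, and their median there was 0.52 against 1.34 in the native path. The interaction was called for 76 of them, 70 in favour of the native path and 6 against it. For the remaining 172 the difference between the paths did not pass the test. All 248 were chosen by their native difference, and the interaction uses the same native libraries. A larger native median and a split in favour of that path are thus partly set by the choice. Of the 161 genes in favour of the native path, 70 rose in it and 44 fell with the fusion. Of the 433 against it, 374 rose with the fusion, and their median was 1.48 there and 0.00 in the native path. Both sets were chosen by the difference between the paths, so these counts and medians are descriptions.

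MHC class I genes were among those that differed between the paths. In the fusion libraries H2-K1 went from 50.5 and 57.6 FPKM at D3 through 96.0 and 107 at D5 to 115 and 126 at D7, a rise of 1.14. At D3 the native libraries lay between the fusion libraries, and at D7 both native libraries lay above both fusion libraries (interaction 1.09 ± 0.24, adjusted p = 0.00892). Psmb9 stood at 0.993 and 0.825 at D3 and 0.476 and 0.406 at D7 with the fusion (interaction 1.76, adjusted p = 0.000618). H2-D1 rose in both paths, and its interaction of 0.91 did not pass (adjusted p = 0.102). The list median was -0.12 with the fusion, and 3 of 12 members were called in the interaction, all higher in the native path.

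Interferon-stimulated genes differed likewise, and complement genes gave no call. Oas2 was between 0.213 and 0.677 FPKM in all 6 fusion libraries (interaction 1.65, adjusted p = 0.00341), and Oas3 between 0.169 and 0.416 (1.27, adjusted p = 0.00142), and both calls were lost with a pseudocount of 0.1. Of 28 genes in that list 3 were called in the interaction, all higher in the native path, and the fusion median was -0.60. Complement genes had a fusion median of 0.87 and 0 interaction calls among 11. C2, for one, rose by 1.34 with the fusion (interaction 0.27 ± 0.34, adjusted p = 0.813). Cfb rose by 1.44 in the native path and had 0.48 with the fusion, where it was not called, and its interaction of 0.96 (adjusted p = 0.0337 in limma) missed the 2-fold size alone. It was called after quantile normalization and without D7 replicate 2.

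**Figure D4:**
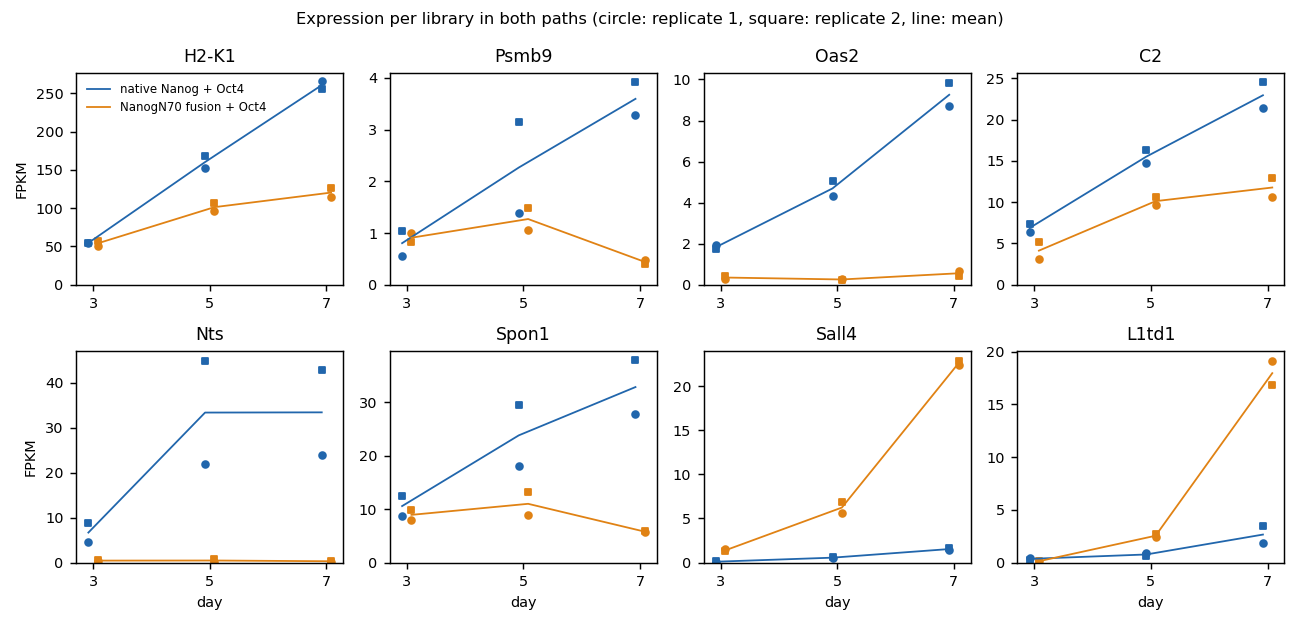
FPKM of 8 genes (vertical axis) by day (horizontal axis) in the native Nanog libraries and the NanogN70 fusion libraries, with circles for replicate 1, squares for replicate 2 and lines for the mean. H2-K1, Psmb9, Oas2, Nts and Spon1 end higher with native Nanog, C2 climbs in both paths, and Sall4 and L1td1 end higher with the fusion.

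The peptide precursors gave unlike values in this comparison. Nts stayed between 0.180 and 0.703 FPKM in all fusion libraries (interaction 2.32 ± 0.44, adjusted p = 0.00308), a call lost with a pseudocount of 0.1. Penk rose by 2.90 with the fusion and by 2.29 in the native path, and the interaction of -0.61 did not pass (adjusted p = 0.554). Clca3a2 (2.82 with the fusion) and Pcsk1n (2.71) were as close. Spon1, the matrix protein spondin 1, went from 8.69 and 12.5 to 27.7 and 38.0 FPKM in the native path and from 7.97 and 9.90 to 5.64 and 5.93 with the fusion (interaction 2.10, adjusted p = 0.00116).

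Stem cell genes lay on the other side. Sall4 went from 1.49 and 1.27 FPKM at D3 to 22.4 and 22.9 at D7 with the fusion (interaction -2.10, adjusted p = 0.00721, lost with a pseudocount of 0.1 or on TPM), and L1td1 rose by 4.07 on the log2(FPKM + 1) scale from 0.147 and 0.0990 FPKM at D3 (interaction -2.67, adjusted p = 0.00275). Tfcp2l1 rose by 1.81 there, and its interaction of -0.52 did not pass. The fusion medians were 1.14 for core factors and 1.88 for effectors, and 6 of 17 and 12 of 23 members were called in the interaction, all lower in the native path. The 1086 genes higher in mES held 241 rises and 7 falls with the fusion, against the 32 and 0 above. Rises were also more frequent with the fusion over all genes tested, 768 (4.56%) against 248 (1.47%). The 14657 genes that differed less than 4-fold between MEF and mES held 474 rises with the fusion and 207 in the native path. Lists without any native call also separated here, with 11 of 25 DNA replication genes and 8 of 26 Wnt pathway genes called lower in the native path.

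**Figure D5:**
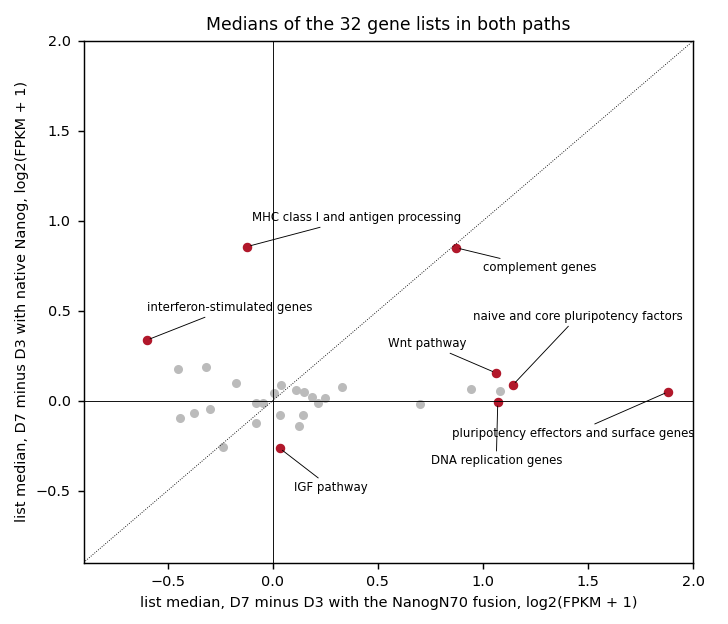
Median difference between D7 and D3 of each of the 32 gene lists with native Nanog (vertical axis, log2(FPKM + 1)) against that with the NanogN70 fusion (horizontal axis, log2(FPKM + 1)), with 8 lists named and a dotted line of equality. Complement lies on the line (0.85 and 0.87), MHC class I and interferon-stimulated genes lie above it, and the pluripotency and DNA replication lists lie far below it.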

How the data were processed

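Gene expression was measured by RNA-seq. Per the study's methods and the submitters' processing notes, the authors trimmed reads with Trim Galore 0.6.4, aligned them to mm10 with HISAT2 2.2.1 and quantified them with StringTie 2.2.1, which gave the FPKM table that the authors deposited (37108 genes, 34 samples). The annotation and the use of strand are not given in the sources used here, so overlapping genes and near-identical copies are uncertain.

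Genes that reached 1 FPKM in 2 or more of the 31 time-course samples were tested on log2(FPKM + 1) with limma 3.58.1 in R 4.3.3 (one mean per factor combination and day, eBayes with trend, two-sided, Benjamini-Hochberg). The scale understates changes of low genes. FPKM are not counts, the absolute depth is unknown, and no detection floor is given. On simulated data 90 of 100 genes changed by 1.5 and 95 of 100 changed by 2 on the log2 scale were recovered between D7 and D3, with 4 others called among 16842. The changed genes were drawn from those with a mean log2(FPKM + 1) of 2 or more, with independent noise. Recovery of lower genes was not measured.

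Named genes were the transduced factors, the 12 highest and 12 lowest called differences at 5 FPKM or more, up to 4 called members per list and the 5 highest and lowest interactions; a few of these and of their list members are not reported here. Members, lists and rules were chosen with earlier results of these data known. Coordinates and promoters are from RefSeq, GRCm38.p6, which matched 15842 tested symbols (94.1%). Python 3.11.15, numpy 2.4.6, pandas 2.3.3 and matplotlib 3.10.9 were used. Alternatives were a pseudocount of 0.1, other filters, quantile normalization, TPM, calls without a fold limit, the compared groups alone, replicates as a block and left-out replicates.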

Additional observations from a re-analysis of the deposited data

Results flagged for a closer look

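The difference between the native and the fusion path from D3 to D7 was tested as an interaction in limma, and 19 named genes passed it. All values are the native minus the fusion difference on the log2(FPKM + 1) scale, with 2 libraries per path and day.

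Higher in the native path were H2-Q6 (1.89), its near-identical copy H2-Q8 (1.91), H2-K1 (1.09) and Psmb9 (1.76) of the MHC class I system, and Oas2 (1.65) and Oas3 (1.27) of the interferon-stimulated genes. So were Nts (2.32), Spon1 (2.10) and Dpt (1.32), which encode secreted proteins. The calls of H2-Q6, H2-Q8 and Dpt were lost with a pseudocount of 0.1, without the filter on low values or on TPM. These 3 were also lost with the compared groups alone or without either native D3 replicate. The calls of Nts, Oas2 and Oas3 were lost with a pseudocount of 0.1, and that of Nts also with the compared groups alone. Ccl7, a chemokine, had 2.26, yet in the native path it stood at 16.4 and 14.7 FPKM at D3 and 17.7 and 17 at D7, and with the fusion it went from 14.2 and 16.2 to 2.24 and 3.38. Shisal2b and Fam159b carry equal values in the table and both gave 2.73, so they count as 1 observation. Their call was lost with the compared groups alone.

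Lower in the native path were Peg10 (-4.89), Lin28a (-4.72), Nkx1-2 (-4.69), Fzd10 (-4.60) and Wnt8a (-4.58), and Sall4 (-2.10) and L1td1 (-2.67). In the native path Lin28a was at 0 in 5 of 6 libraries and at 0.0704 FPKM in D7 replicate 2, against 27.6 and 28.2 at D7 with the fusion. Peg10 stood at 4.30 and 5.75 FPKM at D7 in the native path and at 142 and 161 with the fusion.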

How the results depend on the processing

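No named call between D7 and D3 and none of the 19 named interactions reversed, and 10 of the 19 were called under every alternative. Of the 32 list medians in the native path 14 took both signs over the alternatives, all of them at most 0.10 in size as reported, while MHC class I stayed at 0.73 to 0.91, complement at 0.62 to 1.28 and interferon-stimulated genes at 0.16 to 0.52. The median of all genes tested was -0.01 after quantile normalization. Fusion libraries were not left out. Fitting only the compared groups changed most: 0 genes were higher and 0 lower between D7 and D3, 0 were called between D5 and D3 (1486 at an unadjusted p under 0.05) and 0 between D7 and D5 (878), and the interaction fell from 594 to 284. All 48 named calls were lost there, with 0.126 as the lowest adjusted p. The cause was not tested. Without a fold limit 429 genes were higher and 96 lower, 107 were called between D5 and D3 and 23 between D7 and D5. A pseudocount of 0.1 gave 32 and 3 for the last 2 comparisons, and TPM gave 7 between D7 and D5.

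Without 1 replicate, 193 to 224 genes were higher (248 with all), 18 to 32 lower (30), 26 to 55 called between D5 and D3 (63), 2 to 10 between D7 and D5 (11) and 420 to 460 in the interaction (594). Counts fell by over 1.5 times without D7 replicate 1 (18 lower, and 2 between D7 and D5), without D3 replicate 2 (26) or D5 replicate 2 (34) between D5 and D3, and without D5 replicate 1 (6) or D7 replicate 2 (7) between D7 and D5. Outside the compared-groups fit, 27 of the 48 named calls were kept under every alternative.

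With the replicate number as a block 250 genes were higher, 38 lower, 73 and 11 called through D5, and 662 in the interaction. Same-numbered libraries at D3 and D7 deviated with r = -0.13 (-0.20 for D5 and D7, 0.15 for D3 and D5), and across the paths it ran from -0.42 to 0.39 (0.39 for D7 with D7, 0.37 for native D7 with fusion D3), with 0.32 between fusion D3 and D7. The sign was not shared, so the numbers were not taken as pairs. Crossed numbers, tried after the data were seen, gave 248 and 33. Depth limits genes near 0, and their fold changes carry little precision.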

Other observations

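Beyond the lists, further genes that rose with native Nanog from D3 to D7 belong to innate immunity, and interferon is known to induce several of them, although they are not in the fixed list of interferon-stimulated genes. They were chosen after their values were seen and have no test as a group. Zbp1, a sensor of left-handed nucleic acids, stood at 11.2 and 9.27 FPKM (D3), 23.3 and 26.8 (D5) and 32.9 and 32 (D7), a difference of 1.58 on the log2(FPKM + 1) scale, which exceeded that of the fusion path by 1.73. The guanylate-binding proteins Gbp6 (1.46), Gbp9 (1.33) and Gbp10 (1.34) rose as well, of which Gbp6 also differed between the paths (by 1.39). Trim30a (1.34), Sp100 (1.38) and Il18bp, the soluble inhibitor of interleukin 18, rose too, and the first pair exceeded the fusion path by 1.57 and 1.55. For Il18bp the difference between the paths (1.44) did not pass the test.

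Receptors for peptide hormones and chemokines formed another set, chosen in the same way. Agtr2, an angiotensin receptor, went from 15.6 and 9.80 FPKM at D3 to a mean of 57.7 at D7 (2.12), Npbwr1, a neuropeptide receptor, from 1.15 and 1.22 to 8.81 and 8.66 (2.16), and Avpr1a, a vasopressin receptor, from 2.14 and 2.80 to 10.7 and 9.50 (1.68). All these exceeded the fusion path, by 1.73, 2.01 and 1.69. Oxtr (1.15) and Cxcr4 (2.10) rose without a called difference between the paths. Of the enzymes that break down kynurenine towards NAD, Kynu (2.05) and Qprt (2.05) both rose, and Kynu alone differed between the paths (by 1.78).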
